A study of Rattus norvegicus with 2 samples.

Results

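The genes described here are 10 markers of amacrine cells: *Gad1*, *Gad2*, *Slc6a9*, *Slc32a1*, *Chat*, *Th*, *Tfap2a*, *Tfap2b*, *Pax6* and *Calb2*. They were picked by gene symbol, with earlier results of these data known, and each of the 10 has 1 row among the 32662 genes of the deposited table. Rat retina was sequenced after ischemia-reperfusion injury, in which the blood supply is stopped and then restored. The control group (CTRL) is 1 library of retina from female Long-Evans rats aged 2 months after a sham procedure. The injured group (IR12) is 1 library of retina from female Long-Evans rats of the same age, taken 12 hours after reperfusion. The methods name 2 retinas as the source, which reads as 1 per library, and the number of animals is not given in the sources used here. The libraries were made from RNA of retinal tissue with ribosomal RNA removed, so a value can hold RNA of any retinal cell type.

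Amacrine cells are interneurons of the inner retina that shape the signals passing from bipolar cells to ganglion cells. Most of them are inhibitory and release GABA or glycine, and smaller populations add acetylcholine or dopamine to their transmitter. Enzymes that make a transmitter, transporters that carry it, and transcription factors kept on in the mature cell are the usual markers of the class and of its types.

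The values are FPKM, a unit meant to scale the reads of a gene to transcript length and to the size of the library. How the size of each library was counted is not given in the sources used here, and the direction of some markers depends on it. Scaling to the read totals that the study reports would place IR12 values higher than as deposited, as described below with the read steps. With 1 library per group, the differences have no replicate check and no test was possible. Ratios are log2 of IR12 over CTRL after adding 1 FPKM to each value, which understates the change of genes with low FPKM. The CTRL column summed to 1402321 FPKM, of which small non-coding RNAs took 68.0%, and the IR12 column to 895199.9 FPKM, of which they took 46.3%. Bringing both columns to the same sum (TPM scale) therefore multiplies every IR12 value by a factor whose log2 is 0.65. At least 1 FPKM in at least 1 library was reached by 13599 genes, called the expressed genes here, and their median log2 ratio was 0.02 as deposited and 0.61 on the TPM scale. Both scales are given for each marker.

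All 10 markers had a lower FPKM in IR12 than in CTRL as deposited, against 48.2% of the 13599 expressed genes, while on the TPM scale 6 of the 10 were lower, against 15.7% of the genes, and *Gad1*, *Slc32a1*, *Th* and *Pax6* were higher. Because the markers were chosen with earlier results of these data known, the share of all genes is given for description and is no test. The median log2 ratio of the markers was -0.77 as deposited and -0.20 on the TPM scale. With small non-coding RNAs left out of the sums, which shifts IR12 by -0.10 in place of 0.65, all 10 were lower, against 55.3% of the genes, with a median of -0.84. Of the 6 markers with at least 5 FPKM in at least 1 library, all 6 were lower as deposited, against 45.5% of the genes at that level. Relative to the median expressed gene, all 10 lay lower on both scales, which is not separate support, since rescaling multiplies every IR12 value by 1 factor and so moves the median gene along with the markers.

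The count of markers past 2-fold depended on the scaling and on the FPKM added before the ratio. With 1 FPKM added, 0 of the 10 were at least 2-fold lower, against 6.12% of the expressed genes, and 0 were at least 2-fold higher, against 6.56%. With 0.1 FPKM added, *Tfap2a* and *Tfap2b* were at least 2-fold lower, against 8.65% of the genes. On the TPM scale with 1 FPKM added, 0 of the 10 were at least 2-fold lower, against 3.48% of the genes. Centring on the median gene subtracted 0.025, the median log2 ratio of genes with at least 1 FPKM in both libraries. After it, and with the same sum apart from small RNAs, *Tfap2b* alone was at least 2-fold lower, against 6.37% and 6.90% of the genes. With nothing added, *Chat*, *Tfap2a* and *Tfap2b* were, at 49.7%, 28.9% and 48.6% of their CTRL values, against 9.15% of the genes. The FPKM of the 10 genes summed to 688 in CTRL and 413 in IR12, or 60.1% of the CTRL sum, before any rescaling. Each marker reached 1 FPKM in CTRL, and all except *Tfap2a* did so in IR12. In bulk retina, fewer amacrine cells and less RNA per amacrine cell cannot be told apart. Nor can either be told from a difference in other cells that share a marker, or from the scaling of the libraries.

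**Figure D1:**
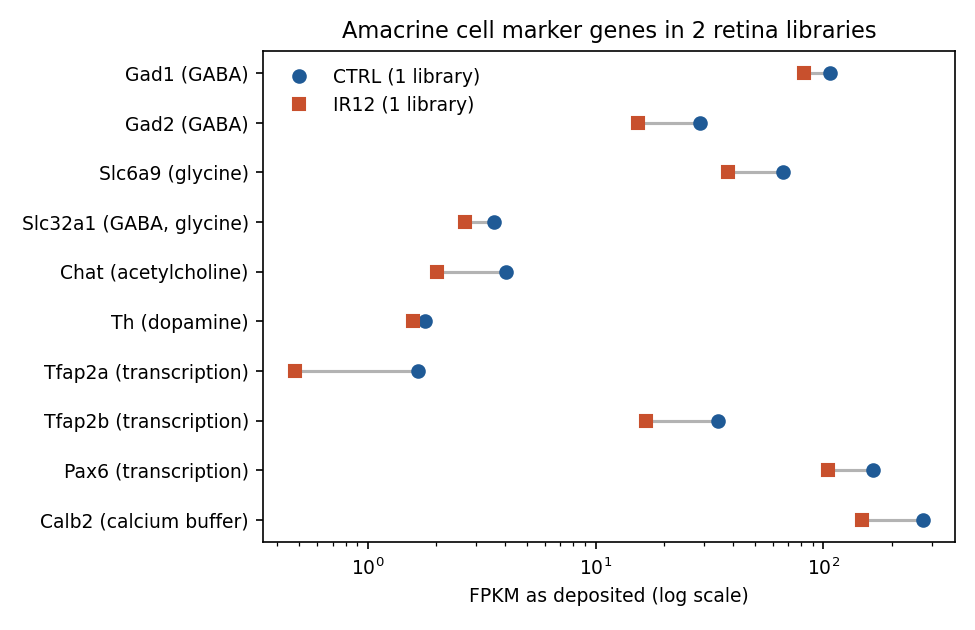
FPKM as deposited (log axis) of the 10 amacrine markers in the CTRL library (circles) and the IR12 library (squares), with the transmitter or role of each gene in brackets. Every square lies left of its circle, from *Th* at 88.5% of its CTRL value to *Tfap2a* at 28.9%, although *Gad1*, *Slc32a1*, *Th* and *Pax6* are higher in IR12 on the TPM scale.

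*Gad1* and *Gad2* encode the enzymes that make GABA from glutamate, and together they mark the GABAergic amacrine cells. *Gad1* (ENSRNOG00000000007, chr3:56861396-56902157 on rn6) measured 107 FPKM in CTRL and 82.7 FPKM in IR12. This was 77.4% of the CTRL value, with a log2 ratio of -0.36 as deposited and 0.28 on the TPM scale. *Gad2* (ENSRNOG00000018200, chr17:89171250-89238040) measured 28.7 FPKM in CTRL and 15.4 FPKM in IR12. Its log2 ratio was -0.86 as deposited and -0.24 on the TPM scale, so it was lower in IR12 on both. The pair differed by unequal amounts, and *Gad1* was 3.72 times *Gad2* in CTRL and 5.37 times *Gad2* in IR12, a comparison within each library that no scaling alters.

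*Slc6a9* encodes the plasma membrane glycine transporter that marks glycinergic amacrine cells, which rely on uptake to hold their glycine. It measured 66.6 FPKM in CTRL and 38.0 FPKM in IR12 (ENSRNOG00000019484, chr5:136669674-136706998). The log2 ratio was -0.79 as deposited and -0.16 on the TPM scale, lower in IR12 on both. Its listed locus overlaps that of *Ccdc24*, which has its own FPKM of 0.471 in CTRL and 0.198 in IR12. *Gad1* was 1.60 times *Slc6a9* in CTRL and 2.18 times *Slc6a9* in IR12, so the glycine marker was lower relative to *Gad1* in IR12. Relative to *Gad2* it was slightly higher, since *Slc6a9* stood at 57.1% of its CTRL value and *Gad2* at 53.6%. The direction against the GABA enzymes therefore depends on which of them is used.

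*Slc32a1* encodes the transporter that loads both GABA and glycine into synaptic vesicles, and it is shared by the GABAergic and the glycinergic cells and by horizontal cells. Its FPKM was 3.57 in CTRL and 2.66 in IR12 (ENSRNOG00000015393, chr3:155103150-155107817). The log2 ratio was -0.32 as deposited and 0.18 on the TPM scale. It kept nearly the same proportion to *Gad1*, which was 29.9 times *Slc32a1* in CTRL and 31.0 times in IR12.

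*Chat* encodes choline acetyltransferase, which makes acetylcholine in the starburst amacrine cells. Its FPKM was 4.04 in CTRL and 2.01 in IR12 (ENSRNOG00000025012, chr16:8576864-8686131). The log2 ratio was -0.75 as deposited and -0.28 on the TPM scale, and without the added 1 FPKM the ratio of the deposited values was -1.01, past 2-fold. *Th* encodes tyrosine hydroxylase, the first enzyme of dopamine synthesis, and marks the sparse dopaminergic amacrine cells. Its FPKM was 1.78 in CTRL and 1.58 in IR12 (ENSRNOG00000020410, chr1:216073031-216080287), or 88.5% of the CTRL value. With a log2 ratio of -0.11 as deposited and 0.32 on the TPM scale, *Th* had the highest ratio of the 10 markers on both scales. *Chat* was 2.26 times *Th* in CTRL and 1.27 times *Th* in IR12, so the cholinergic and the dopaminergic marker lay closer to each other in IR12.

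Promoters are shown for a gene of each transmitter (*Gad1* and *Gad2* for GABA, *Slc6a9* for glycine, *Chat* for acetylcholine, *Th* for dopamine). *Tfap2a* and *Tfap2b*, which encode AP-2 factors, are also among the 10, and a link between them and the ratios of these genes was not tested. In RefSeq (GRCr8), 7 of the 10 markers matched a promoter entry of 250 bases before and 50 bases after the gene start, and *Tfap2a*, *Tfap2b* and *Calb2* did not. Capitals mark matches on either strand to the AP-2 site GCCNNNGGC, to the cAMP response element TGACGTCA, to the TATA box TATAAA and to the GC box CCGCCC, which reads GGGCGG where it lies on the opposite strand. The motifs were chosen after the sequences were read, and no match overlapped another. The entries are chr3:75777202-75777501 (plus strand) for *Gad1*, chr17:89671468-89671767 (plus) for *Gad2*, chr5:136659826-136660125 (plus) for *Slc6a9*, chr16:7723367-7723666 (minus) for *Chat* and chr1:207508169-207508468 (minus) for *Th*.
Gad1: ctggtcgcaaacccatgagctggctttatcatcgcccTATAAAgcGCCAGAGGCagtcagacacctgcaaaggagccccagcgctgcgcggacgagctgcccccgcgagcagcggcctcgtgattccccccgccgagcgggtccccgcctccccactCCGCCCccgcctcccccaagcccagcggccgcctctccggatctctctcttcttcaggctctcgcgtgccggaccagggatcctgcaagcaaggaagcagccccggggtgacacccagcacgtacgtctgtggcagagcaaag
Gad2: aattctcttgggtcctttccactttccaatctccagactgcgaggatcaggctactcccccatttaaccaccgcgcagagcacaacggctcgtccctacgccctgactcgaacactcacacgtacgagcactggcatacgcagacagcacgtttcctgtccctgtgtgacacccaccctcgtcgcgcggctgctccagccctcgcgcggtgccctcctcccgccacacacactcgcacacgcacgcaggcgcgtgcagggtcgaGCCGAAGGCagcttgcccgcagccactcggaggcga
Slc6a9: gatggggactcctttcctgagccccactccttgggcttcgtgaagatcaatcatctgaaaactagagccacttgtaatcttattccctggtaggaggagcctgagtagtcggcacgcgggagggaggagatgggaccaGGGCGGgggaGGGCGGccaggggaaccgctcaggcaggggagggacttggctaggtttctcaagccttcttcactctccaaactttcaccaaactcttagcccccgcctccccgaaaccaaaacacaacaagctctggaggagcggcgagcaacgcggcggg
Chat: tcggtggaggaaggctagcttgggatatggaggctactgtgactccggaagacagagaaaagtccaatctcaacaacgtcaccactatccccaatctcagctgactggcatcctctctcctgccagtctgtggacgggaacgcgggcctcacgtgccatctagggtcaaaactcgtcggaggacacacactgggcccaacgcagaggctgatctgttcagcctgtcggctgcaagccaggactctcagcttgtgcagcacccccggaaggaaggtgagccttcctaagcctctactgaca
Th: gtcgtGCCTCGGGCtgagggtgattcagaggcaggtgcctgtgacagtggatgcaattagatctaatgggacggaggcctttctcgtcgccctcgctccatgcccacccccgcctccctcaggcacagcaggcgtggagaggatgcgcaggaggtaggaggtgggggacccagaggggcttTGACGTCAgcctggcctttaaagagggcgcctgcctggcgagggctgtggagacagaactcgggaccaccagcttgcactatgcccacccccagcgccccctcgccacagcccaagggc

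In *Gad1* the TATAAA match began 213 bases before the gene start, the AP-2 match 205 bases before it and the GC box 93 bases before it. *Gad2* held an AP-2 match inside the transcribed bases, at position 15 after the start, and *Th* held one 245 bases before its start. The cAMP response element, the element through which CREB acts, lay 69 bases before the start of *Th*. *Slc6a9* had GC boxes 112 and 102 bases before its start, and the *Chat* window had no match to these letters. Among the 7 matched promoters, the AP-2 letters were in 3, the GC box in 3, the cAMP response element in 1 and the TATA box in 1. Of all 33469 promoters of the same length, 15.1% held the AP-2 letters, 33.1% the GC box, 1.83% the cAMP response element and 14.2% the TATA box. The GC content was 67.7% for *Gad1*, 63.7% for *Gad2*, 59.0% for *Slc6a9*, 57.3% for *Chat* and 65.3% for *Th*, against 73.7% for *Slc32a1* and 43.0% for *Pax6*. These matches describe the sequence and are not measured binding.

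*Tfap2a* and *Tfap2b* encode the AP-2 alpha and AP-2 beta transcription factors, which act in the formation of amacrine and horizontal cells and stay on in mature amacrine cells. *Tfap2b* (ENSRNOG00000011823, chr9:25410669-25440411) measured 34.4 FPKM in CTRL and 16.7 FPKM in IR12, or 48.6% of the CTRL value. Its log2 ratio as deposited was -0.998 with 1 FPKM added, just inside 2-fold, and -1.04 with nothing added, and it was -0.38 on the TPM scale. *Tfap2a* (ENSRNOG00000015522, chr17:24654902-24670457) measured 1.65 FPKM in CTRL and 0.478 FPKM in IR12, which is 28.9% of the CTRL value. Its log2 ratio was -0.84 as deposited and -0.60 on the TPM scale. At such low FPKM the added 1 FPKM governs the ratio, which was -1.60 with 0.1 FPKM added and -1.79 with nothing added. *Tfap2b* was 20.8 times *Tfap2a* in CTRL and 35.1 times in IR12.

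*Pax6* encodes a paired-box and homeodomain factor that is present in amacrine, ganglion and horizontal cells, in Müller glia and in the lens. Its FPKM was 165 in CTRL and 105 in IR12 (ENSRNOG00000004410, chr3:95707386-95728624). The log2 ratio was -0.64 as deposited and 0.0033 on the TPM scale, where the libraries were nearly equal. *Pax6* was 4.79 times *Tfap2b* in CTRL and 6.30 times *Tfap2b* in IR12. *Calb2* encodes calretinin, a calcium-binding protein of many amacrine cells and of some ganglion cells, and was the most abundant of the 10 in both libraries. Its FPKM was 275 in CTRL and 148 in IR12 (ENSRNOG00000016977, chr19:41482728-41509658). The log2 ratio was -0.89 as deposited and -0.25 on the TPM scale.

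**Figure D2:**
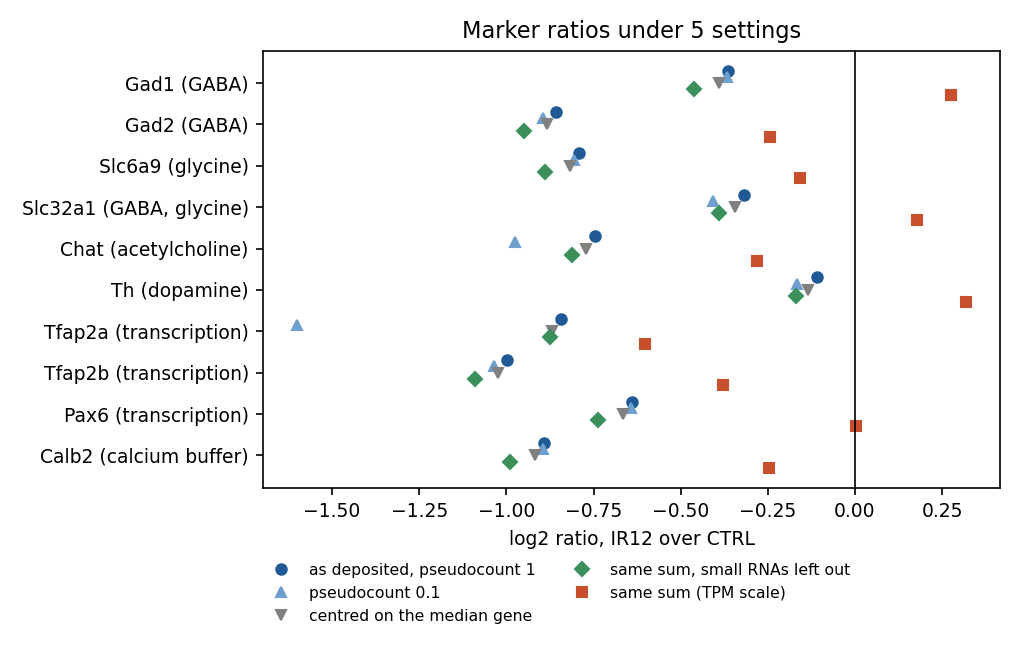
Log2 ratio, IR12 over CTRL, of the 10 markers as deposited, with 0.1 FPKM added in place of 1, centred on the median gene, with the same sum apart from small RNAs, and with the same sum (TPM scale). The TPM squares lie right of all other points of a gene and pass 0 for *Gad1*, *Slc32a1*, *Th* and *Pax6*, and *Tfap2a* spreads furthest, from -1.60 to -0.60.

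By transmitter, the log2 ratios relative to the median gene were -0.39 and -0.88 for the GABA enzymes, -0.82 for the glycine transporter, -0.34 for the vesicular transporter, -0.77 for *Chat* and -0.13 for *Th* as deposited. On the TPM scale, again relative to the median gene, the same genes had -0.34 and -0.86, -0.77, -0.43, -0.90 and -0.29. *Gad1*, *Slc32a1* and *Th* were thus nearest to the median gene on either scale, with *Gad2*, *Slc6a9* and *Chat* further below it. The transcription factors stood at -0.87 for *Tfap2a*, -1.02 for *Tfap2b* and -0.66 for *Pax6* as deposited, and at -1.21, -0.99 and -0.61 on the TPM scale. *Calb2* stood at -0.91 and -0.86. Among the 13599 genes, the ratio as deposited, with 1 FPKM added, was at percentile 6.14 for *Tfap2b*, 7.30 for *Calb2*, 7.69 for *Gad2*, 7.89 for *Tfap2a*, 8.63 for *Slc6a9*, 9.50 for *Chat* and 12.2 for *Pax6*. The other members lay at percentile 22.8 (*Gad1*), 25.2 (*Slc32a1*) and 39.3 (*Th*). No transmitter type can be called different from another without replicates.

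**Figure D3:**
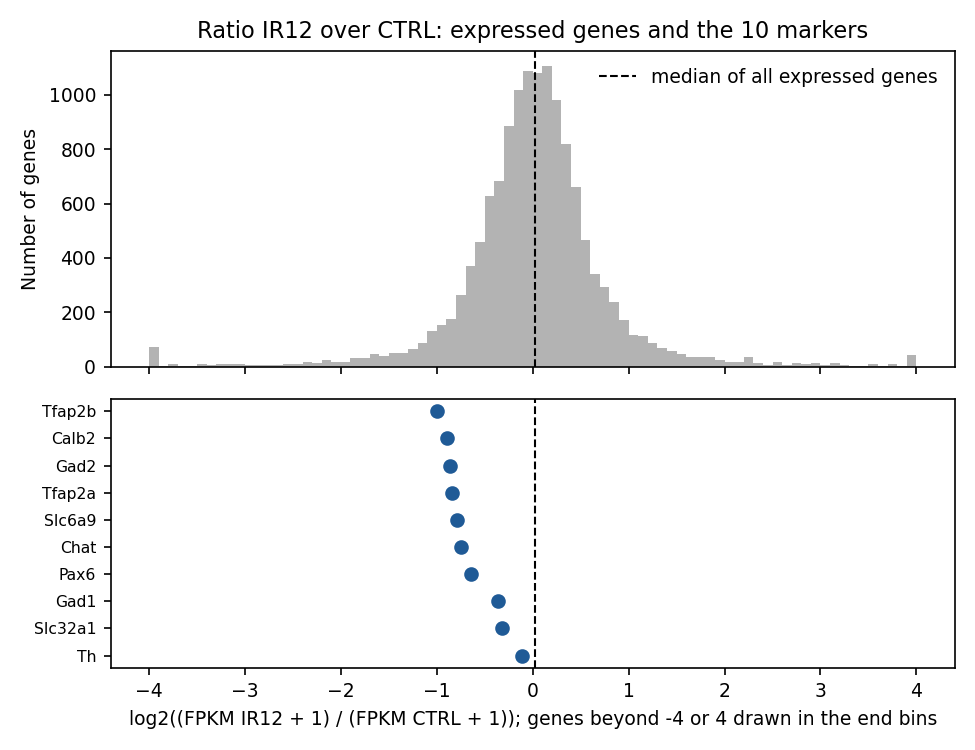
Upper plot, number of genes by log2 ratio as deposited (IR12 over CTRL, 1 FPKM added, bins of 0.1) for the 13599 expressed genes, with their median of 0.02 as a dashed line. The end bins, at -4.0 and 4.0, also hold the genes beyond those values. Lower plot, the 10 markers on the same axis, all left of the median gene, from *Tfap2b* at -0.998 to *Th* at -0.11; on the TPM scale they also lie below the median gene, although 4 of them are above 0.

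The number of reads behind each marker is not known. Among short genes, FPKM moves in steps of single reads, and at a locus length of 948 bp 1 read was worth 0.0870 FPKM in CTRL and 0.0510 in IR12. The step in CTRL was 1.71 times that in IR12 at 17 of the 25 locus lengths that could be compared, so at these lengths the same FPKM stands for more reads in IR12 than in CTRL. The FPKM of *Th*, *Tfap2a*, *Slc32a1* and *Chat* was 4.04 or less in both libraries, and the difference of *Th* was -0.205 FPKM. The counting error of these values cannot be given because the table holds no read counts. *Gad1*, *Pax6* and *Calb2*, in contrast, were among the abundant genes of both libraries, and the lowest percentile among them was 90.2 (*Gad1* in IR12, over genes with at least 1 FPKM there).

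A wider list of 39 other genes used in amacrine cells, also chosen with earlier results of these data known, was read beside the markers. Of the 37 analysed, 29 were expressed, and 27 of these 29 were lower in IR12 as deposited (48.2% of all expressed genes), with a median log2 ratio of -0.47, whereas on the TPM scale 12 of 29 were lower (15.7% of all) and the median was 0.043. The list summed to 711 FPKM in CTRL and 435 in IR12, or 61.2% of CTRL, close to the 60.1% of the 10 markers as deposited. With 1 FPKM added, 5 of the 29 were at least 2-fold lower as deposited, among them *Abat*, *Slc5a7*, *Slc17a8* and *Penk*, and 0 were at least 2-fold higher, against 6.12% and 6.56% of all expressed genes. On the TPM scale, also with 1 FPKM added, 2 were at least 2-fold lower (*Slc5a7* and *Penk*) and 1 higher (*Gch1*), against 3.48% and 22.4%. As deposited with nothing added, 7 were at least 2-fold lower and 1, *Gch1*, at least 2-fold higher, against 9.15% and 8.88%. *Ptf1a* and *Npy* are listed at 0 in both libraries, a value that the table also lists for all 37 mitochondrial genes and that is therefore no sign of silence. *Slc18a3* and *Neurod2* were not analysed here.

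*Abat*, the enzyme that breaks GABA down, was further from its CTRL value than the enzymes that make GABA. It measured 21.7 FPKM in CTRL and 7.05 FPKM in IR12, with log2 ratios of -1.49 as deposited and -0.91 on the TPM scale. *Abat* is also expressed by Müller glia, and its listed locus overlaps that of another row. *Slc6a5*, the neuronal glycine transporter of other brain regions, was near 0 in both libraries, with 0.0481 FPKM in CTRL and 0.0338 in IR12.

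*Slc5a7*, the choline transporter that supplies *Chat* with substrate, measured 7.43 FPKM in CTRL and 2.01 FPKM in IR12, with a log2 ratio of -1.48 as deposited and -1.02 on the TPM scale. *Chat* was 0.544 times *Slc5a7* in CTRL and 0.997 times in IR12. *Megf10*, a surface protein by which starburst cells space themselves, had 15.9 and 12.1 FPKM, and its log2 ratio of -0.36 turned to 0.24 on the TPM scale. *Sox2*, a factor of starburst cells and of Müller glia, had 12.6 FPKM in CTRL and 7.42 in IR12 and was lower on both scales (-0.69 and -0.11). Genes of the cholinergic cells thus had unequal ratios, with *Chat* between *Slc5a7* and *Sox2* on both scales.

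As deposited, dopamine handling was the only group of the wider list with expressed genes that were higher in IR12, although on the TPM scale other groups held such genes too and with the same sum apart from small RNAs *Slc18a2* turned lower (-0.0079). The expressed ones were *Slc18a2* and *Gch1*. *Slc18a2*, which loads dopamine into vesicles, measured 1.27 FPKM in CTRL and 1.35 FPKM in IR12, with log2 ratios of 0.05 as deposited and 0.45 on the TPM scale. *Gch1*, which makes the cofactor that tyrosine hydroxylase needs, had 0.456 FPKM in CTRL and 1.90 in IR12, with log2 ratios of 0.99 and 1.45. At so low an FPKM the added 1 FPKM holds the first of these under 2-fold, and with nothing added it was 2.06. *Gch1* is also made by immune and endothelial cells, and summed leukocyte markers were 21.8 FPKM in CTRL and 138 in IR12 (9 of 10 higher as deposited and on the TPM scale, with *Csf1r* turning lower where small RNAs are left out of the sums, *S100a8* listed at 0 in CTRL, *Lyz2* the most abundant at 9.73 and 76.9), a part in the *Gch1* value that was not tested. *Ddc* and *Slc6a3* were below 1 FPKM, at 0.217 and 0.0409 in CTRL and 0.183 and 0.0213 in IR12.

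Among peptides, *Penk*, which encodes the enkephalin precursor, measured 45.4 FPKM in CTRL and 13.3 FPKM in IR12, with a log2 ratio of -1.70 as deposited and -1.09 on the TPM scale, and its listed locus overlaps that of another row. *Tac1*, the substance P precursor, had 43.4 and 43.1 FPKM, with log2 ratios of -0.01 and 0.63. *Vip* had 16.1 and 10.2 FPKM, with -0.61 and -0.01. *Slc17a8*, the vesicular transporter of the amacrine cells that release glutamate, had 2.19 FPKM in CTRL and 0.551 in IR12, with -1.04 and -0.78, its deposited value in IR12 being 25.1% of that in CTRL. Of the genes used for the AII cell, a glycinergic type of the rod pathway, *Prox1* had 46.5 and 23.1 FPKM (-0.98 as deposited, -0.35 on the TPM scale), *Dab1* 19.4 and 13.8 (-0.47 and 0.14) and the gap junction gene *Gjd2* 50.4 and 42.1 (-0.26 and 0.38). The transcription factors *Meis2* and *Ebf1* were nearly level as deposited, with FPKM of 26.0 and 12.3 in CTRL and 24.3 and 12.2 in IR12, and higher in IR12 on the TPM scale by 0.53 and 0.59.

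**Figure D4:**
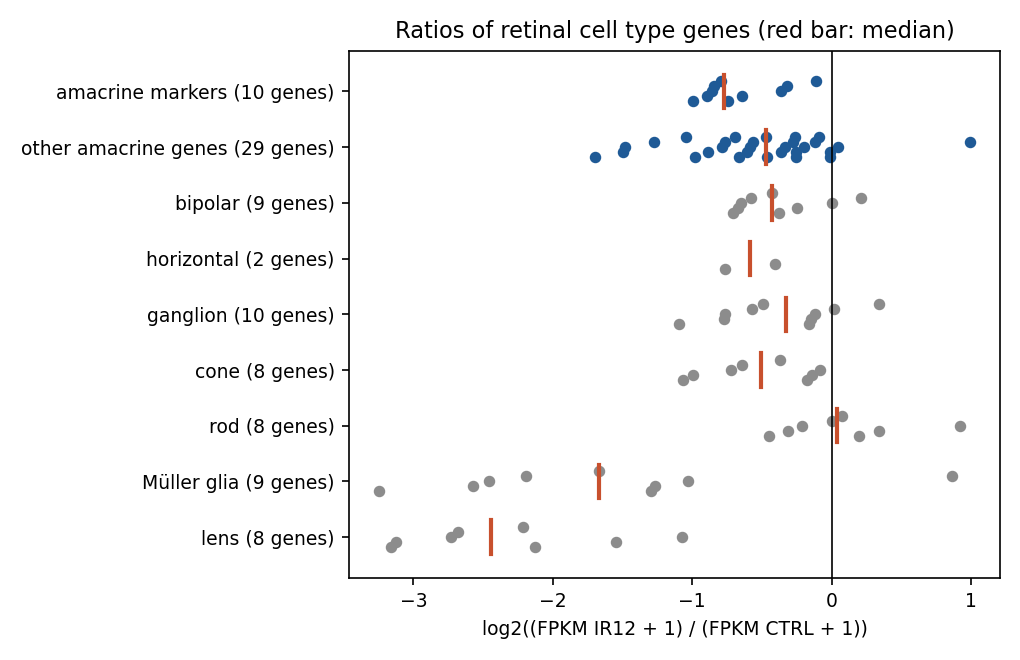
Log2 ratio as deposited (IR12 over CTRL, 1 FPKM added) of the expressed genes, by list, with 1 point per gene and the median as a bar. The amacrine markers have a median of -0.77 and the other amacrine genes -0.47, against -0.43 for bipolar, -0.33 for ganglion, 0.038 for rod, -1.67 for Müller glia and -2.45 for lens genes; on the TPM scale these are -0.20, 0.043, 0.19, 0.30, 0.69, -1.02 and -1.95.

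Several markers are shared with other cells, and the markers of those cells differed between the libraries as well. Of the 9 Müller glia genes, 8 were lower in IR12 on both scales, with *Vim* higher, and none was at 0. Their sum was 1632 FPKM in CTRL and 575 in IR12. *Glul* was the most abundant in CTRL, at 754 FPKM against 126 in IR12. In IR12 the most abundant was *Vim*, at 221 FPKM against 121 in CTRL. All 8 lens genes were lower on both scales, none was at 0, and their sum was 1772 FPKM in CTRL and 205 in IR12, with *Cryaa* at 1118 and 124. Their part in the values of *Pax6*, *Slc6a9*, *Abat*, *Sox2* and *Prox1* was not tested. The 12 ganglion cell genes summed to 366 FPKM in CTRL and 298 in IR12, none was at 0, *Nefl* was the most abundant at 132 and 88.8, and of the 10 expressed ones 8 were lower as deposited and 3 on the TPM scale. The 4 horizontal cell genes summed to 77.0 and 45.2 FPKM, almost all of it from *Calb1* (74.2 and 43.2), which amacrine cells also express, and none was at 0. Both expressed horizontal cell genes were lower on either scale, with median log2 ratios of -0.59 as deposited and -0.08 on the TPM scale. What ganglion and horizontal cells add to *Calb2*, *Pax6*, *Slc32a1*, *Tfap2a* and *Tfap2b* was not tested.

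Bipolar cells, the other large class of inner retinal interneurons, gave a median log2 ratio of -0.43 as deposited over 9 genes, 7 of them lower, against 0.19 and 3 of 9 lower on the TPM scale. Their 10 genes summed to 667 FPKM in CTRL and 511 in IR12, or 76.6% of CTRL, with *Trpm1* at 189 and 159 and *Otx2* listed at 0. The 8 rod genes had a median of 0.038 as deposited and 0.69 on the TPM scale, and -0.061 with the same sum apart from small RNAs. The 8 cone genes summed to 521 and 347 FPKM, with *Gnat2* at 179 and 138, and had medians of -0.51 and 0.14. The median of the 10 amacrine markers was thus below that of the bipolar, ganglion, cone and rod genes on both scales and above that of the Müller glia and lens genes. The second scale is not separate support for this order. Rescaling multiplies every IR12 value by 1 factor, and only the added 1 FPKM lets the order of the lists change. As deposited, this order holds for the 10 markers and not for the wider amacrine list, since the 29 other amacrine genes had a median of -0.47 as deposited, between the cone and the bipolar genes, and the pair of horizontal cell genes had -0.59, whereas on the TPM scale the 29 genes, at 0.043, did lie below the cone genes. The difference between these lists was not tested, since each rests on the same pair of libraries.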

How the data were processed

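RNA of CTRL and IR12, 1 library each, was compared with no test. The authors deposited gene-level FPKM, and the submitters' processing notes name STAR 2.5.2b, Cuffdiff 2.2.0 and the rn6 genome, without their roles. The series text names a stranded mRNA kit and the sample labels and the study's methods a stranded total RNA kit, both with removal of ribosomal RNA. Listed starts count from 0, since end minus start equalled the hairpin length at 190 of 346 microRNA rows, and were raised by 1. Small non-coding RNAs were recognised by symbol. The 10 members and the lists of other genes were chosen with earlier results of these data known. Named are all members, any gene of the wider amacrine list and, of each list of another cell type, its most abundant gene in CTRL, its genes at 0 and those past 2-fold. Some genes of these lists are not reported here by name. *Ccdc24*, *Vim* and *Csf1r* were named after their values were seen. Lists of astrocyte, pigment epithelium, endothelium and blood genes summed to 28.8, 109, 127 and 20.8 FPKM in CTRL and 27.8, 133, 106 and 35.3 in IR12, without *Pecam1*, *Hba1* and *Hba2*, which were not analysed here. Within these sums *Gfap* was 2.95 in CTRL and 21.9 in IR12, *S100b* 25.8 and 5.81, *Flt1* 12.3 and 32.3 and *Kdr* 108 and 66.8. Ratios between genes and the motifs were chosen after values or sequences were seen. The TPM scale multiplies IR12 to the sum of CTRL. The alternatives were 0.1 FPKM added in place of 1, centring on the median gene, the same sum with or without small RNAs, a minimum FPKM of 5 or none and, added after the data were seen, no FPKM added. Centring used the median of genes with at least 1 FPKM in both libraries. Values called relative to the median gene used the median of the 13599 expressed genes. Python 3.11.15, numpy 2.4.6, pandas 2.3.3 and matplotlib 3.10.9 were used.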

Additional observations from a re-analysis of the deposited data

How the results depend on the processing

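Over 19 results, 82 of 108 alternative values kept their direction and moved by less than 0.25 on the log2 scale or by at most 1.5 times for a count, 21 moved further and 5 reversed. The 82 include settings that could hardly move a ratio. Centring subtracts 0.025 from each ratio, and without a minimum FPKM the same 10 markers are kept. The reversals were all on the TPM scale, where the log2 ratio was 0.28 for *Gad1*, 0.18 for *Slc32a1*, 0.32 for *Th* and 0.0033 for *Pax6*, and the median of the other amacrine genes was 0.043. On that scale 6 markers were lower in IR12, the median of the markers was -0.20, and 473 genes were at least 2-fold lower and 3051 at least 2-fold higher, against 832 and 892 as deposited. The shift follows from the construction of the scale, which multiplies all of IR12 by 1 factor. With an FPKM of at least 5 required, 6 markers were kept and all 6 were lower, against 45.5% of all genes at that minimum. Of the other amacrine genes, 2 were at least 2-fold lower and 1 at least 2-fold higher on the TPM scale, against 5 and 0 as deposited with 1 FPKM added, and 1 was at least 2-fold higher with 0.1 FPKM or nothing added. Markers at least 2-fold lower numbered 0 as deposited with 1 FPKM added. On the TPM scale they also numbered 0, against 3.48% of all expressed genes. As deposited they numbered 2 with 0.1 FPKM added (*Tfap2a*, *Tfap2b*) and 3 with no FPKM added (*Chat*, *Tfap2a*, *Tfap2b*). After centring, and with the same sum apart from small RNAs, the count was 1 (*Tfap2b* in both, against 6.37% and 6.90% of all expressed genes). The ratio with nothing added and the 2-fold counts of other amacrine genes were chosen after seeing the data. No paired analysis was possible because each group has 1 library, and for the same reason no replicate could be left out. Variation between animals was not measured, and the read numbers behind the markers are not known.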
